A study of Glycine max with 63 samples.

Results

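The genes described here were chosen by their low read counts in a transgenic soybean line grown in the field, and there were 48 of them among 55897 soybean genes. They were selected on reads summed over the 3 libraries of a genotype and stage and expressed per 1000000 counts (CPM). A gene was eligible where the wild type reached at least 2 CPM at each of the 3 field stages, which 21633 genes did. For W-1 and WD-1 separately, the value log2((line + 0.2)/(WT + 0.2)) was taken at each stage, and the largest of the 3 values was the gene's score. The 25 genes with the lowest scores formed a list for each line, and 2 genes, GLYMA_02G111200 and GLYMA_15G116900, were in both lists. The score uses field values of W-1, WD-1 and WT, so every field value given below is a description with no test.

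RNA was sequenced from developing soybean seeds to follow the response to Arabidopsis WRI1 and DGAT1, 2 genes introduced to alter oil and carbohydrate in the seed. Wild type (WT) was the cultivar Thorne. In the field, WT, W-1 and WD-1 seeds were collected at the stages R5, R5/6 and R6, with 3 plots a group and bulked seeds of a plot in each of the 27 libraries. In the greenhouse, embryos freed of the seed coat and endosperm were collected from WT, WD-1 and WD-2 plants at 24, 27, 30 and 33 days after pollination (DAP), with 1 embryo of 1 plant in each of the 36 libraries and 3 libraries a group. The labels call W-1, WD-1 and WD-2 genotypes and give neither the promoters of the transgenes nor how the lines are related, and the growth protocol names WD-1 and WD-2 for the field trial where the field samples are labelled W-1 and WD-1. Among the 9 W-1 libraries of the field AtWRI1 ranged from 1.86 to 150.1 CPM and AtDGAT had 0 reads in each. Among the 9 WD-1 libraries there AtWRI1 ranged from 4.80 to 249.6 CPM and AtDGAT from 0.201 to 33.2 CPM. Among the 9 WT libraries AtWRI1 did not exceed 0.398 CPM, which was 1 read, and AtDGAT had 0 reads.

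Greenhouse groups are named by their labels, because the transgenes did not follow the labels at every time. At 27 DAP AtWRI1 was at 222 to 312 CPM under the label WD-1, at 301 to 319.6 CPM under WD-2 and at most at 0.0526 CPM under WT. At 24 DAP it did not exceed 0.408 CPM under any label. At 30 and 33 DAP the libraries labelled WT held 51.6 to 289 CPM. Codes in the names of the deposited tables also group the greenhouse libraries in another way than the labels do. A first code, Wt, G or R, forms 3 sets of 12 libraries. A second code, T2, T3, T4 or T5, divides each set into 4 groups of 3. The 12 libraries labelled 24 DAP or WT at 27 DAP make up the set coded Wt, in which AtWRI1 did not exceed 0.408 CPM. In the sets coded G and R AtWRI1 was at 39.0 to 323.6 CPM, except for 1 library with 0 reads. The libraries labelled WD-1 and WD-2 at 27 DAP are in the set coded G, as T2 and T3. The labelled WT of 27 DAP and of 24 DAP are in the set coded Wt, as T5 and T2. The libraries labelled WT at 24 DAP and WD-1 at 27 DAP share their second code. What the codes stand for is not stated. If they rather than the labels gave genotype and time, the groups labelled 27 DAP would not be of 1 time, and the libraries labelled WD-1 and WD-2 there would not be of different lines. Tests were made at 27 DAP only, by label, where the transgenes followed the labels, and every genotype and time given for the greenhouse is that of the label. Field libraries held 1.17 to 36.2 M counts, with 10 of 27 under 10 M, and greenhouse libraries 3.02 to 23.6 M. The tissue could not be checked against embryo and seed coat markers, since none of the identifiers matched the reference table used here.

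WRI1 is a transcription factor that raises the expression of genes of glycolysis and fatty acid synthesis in plant seeds. DGAT1 is the enzyme that adds the last fatty acid to form triacylglycerol, the storage oil. During the stages sampled, soybean embryos pass from growth to filling, when storage protein and oil accumulate and transcript levels of many seed genes change steeply from one stage to the next. The member genes carry no names or annotation in the sources used here, so no role is given for any of them. A GLYMA identifier gives the chromosome before the letter G, and its number rises in order along the chromosome, so neighbouring identifiers name neighbouring genes. The members lay on 19 chromosomes, with 9 of the 48 on chromosome 15. The share of eligible genes on that chromosome was not counted, so this is not read as a trait of the members.

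Few members were close to lost, and the lists are best read as the lowest-ranked genes of each line. In the W-1 list the scores ran from -3.77 to -0.84 with a median of -1.09, so that the median gene stood at 46.9% of WT at its least reduced stage. At all 3 stages, 13 of the 25 were at 50% of WT or less, 2 were at 25% or less and 1 was at 12.5% or less. In the WD-1 list the scores ran from -5.02 to -0.42 with a median of -0.59, or 66.2% of WT. Of those 25, 4 were at 50% or less at all stages, and 2 of them were at 12.5% or less. Over all eligible genes the median score was 0.21 for W-1 and 0.47 for WD-1. The last gene inside the W-1 list was GLYMA_08G069100 at -0.84, and the first outside was GLYMA_03G040100 at -0.82. For WD-1 these were GLYMA_06G235900 at -0.42 and GLYMA_08G019400 at -0.41. Both lists thus end in a dense run of values with no gap.

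**Figure D1:**
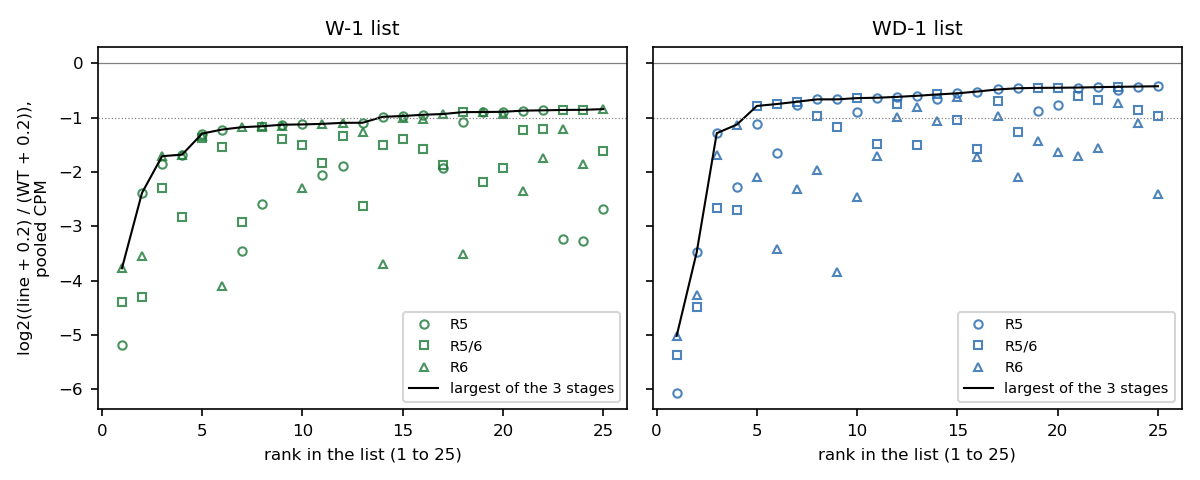
Each member's log2((line + 0.2)/(WT + 0.2)) of summed CPM in the field (y axis, log2 units) against its rank in the list (x axis) for the W-1 list (left) and the WD-1 list (right). Symbols are the 3 stages, the black line joins the largest of the 3 values, and the dotted line marks 50% of WT. The black line is far below the rest for the lowest pair of genes in the WD-1 list and for GLYMA_14G136300 in the W-1 list. From about rank 5 on it runs nearly flat.

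The adjoining genes GLYMA_15G228600 and GLYMA_15G228700 on chromosome 15 had the lowest scores in WD-1, and they had nearly no reads there. GLYMA_15G228600 stood at 15.8, 15.3 and 11.3 CPM in the WT libraries at R5, at 9.88, 8.94 and 7.42 CPM at R5/6 and at 4.77, 3.41 and 6.54 CPM at R6. In W-1 it stood at 17.0, 13.2 and 9.86 CPM at R5, at 8.32, 6.93 and 6.30 CPM at R5/6 and at 6.63, 5.34 and 5.77 CPM at R6. The W-1 and WT values overlapped at each stage. In WD-1, 7 of the 9 libraries had 0 reads of GLYMA_15G228600, and the others held 1 read each, in replicate 2 at R5 (0.0348 CPM) and in replicate 3 at R5/6 (0.303 CPM). Over the 3 stages WT held 2318 reads in 216.5 M counts and WD-1 held 2 reads in 151.7 M, a ratio of 812 with an exact 95% interval of 225 to 6708 that covers counting error only. Every WD-1 library lay below every WT library of its stage. In libraries of whole seeds or embryos, fewer cells with a transcript and less of it per cell cannot be told apart.

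GLYMA_15G228700 had 0 reads in all 9 WD-1 libraries. In WT it stood at 1.46, 2.84 and 1.98 CPM at R5, at 4.94, 4.21 and 3.74 CPM at R5/6 and at 2.39, 1.71 and 3.82 CPM at R6. In W-1 it stood at 0.487, 2.41 and 2.34 CPM at R5, at 4.61, 3.08 and 5.10 CPM at R5/6 and at 6.01, 3.94 and 2.52 CPM at R6, so W-1 and WT overlapped at each stage for this gene too. With a floor of 3 counts over the group, WD-1 was at least 42.5-fold lower than WT at R5, at least 84.0-fold lower at R5/6 and at least 36.1-fold lower at R6. Over the 3 stages, 700 WT reads set against that floor put WD-1 at least 163-fold lower. The WD-1 libraries included 1 at R5 (replicate 1) with little transgene, at 4.80 CPM of AtWRI1 and 0.201 CPM of AtDGAT, and both genes had 0 reads in it. The only other eligible identifier within 5 places of GLYMA_15G228600, GLYMA_15G228400, had values of -0.59, 0.37 and -0.45 in WD-1 at the 3 stages. GLYMA_15G228500, next to GLYMA_15G228600 and with lower counts, was at -0.88, -0.53 and 0.

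In W-1 the gene with the lowest score was GLYMA_14G136300 on chromosome 14. It stood at 29.2, 19.8 and 32.8 CPM in WT at R5, at 26.7, 28.6 and 24.1 CPM at R5/6 and at 17.4, 15.9 and 13.8 CPM at R6. The W-1 libraries held 0.487, 0.510 and 0.613 CPM at R5, 1.18, 0 and 0.900 CPM at R5/6 and 0.941, 0.858 and 0 CPM at R6. Every W-1 library was below every WT library of its stage, and 124 W-1 reads in 158.3 M counts against 5452 WT reads in 216.5 M made a ratio of 32.2 (exact 95% interval 26.9 to 38.7, counting error only). WD-1 held 17.7, 24.7 and 9.22 CPM at R5, 16.4, 7.30 and 3.95 CPM at R5/6 and 4.61, 12.2 and 5.66 CPM at R6. These levels lay between those of W-1 and WT, except that the WD-1 library at 24.7 CPM lay within the WT range at R5. The 3 eligible identifiers within 5 places, GLYMA_14G135900, GLYMA_14G136600 and GLYMA_14G136700, ran from -0.24 to 0.73 in W-1 over the stages.

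GLYMA_15G240300, also on chromosome 15, was next. It stood at 9.22, 8.90 and 9.25 CPM in WT at R5, at 9.07, 5.06 and 5.02 CPM at R5/6 and at 1.99, 3.41 and 3.05 CPM at R6. In W-1 it stood at 0.487, 1.93 and 1.39 CPM at R5, at 0.127, 0 and 0.30 CPM at R5/6 and at 0.117, 0 and 0.360 CPM at R6. The summed W-1 level was 17.4% of WT at R5, 2.10% at R5/6 and 2.42% at R6, so this gene was low at each stage but nearly absent only at the later ones. WD-1 overlapped WT at each stage, with values of 0.01, 0.38 and 0.68 on the log2 scale of the score. Its 2 eligible identifiers within 5 places ran from -0.53 to 1.58 in W-1. Of the identifiers there with lower counts, GLYMA_15G240200, next to it, was at -1.02, -1.19 and -1.91 in W-1, and GLYMA_15G240600 was at 0.80, -1.71 and -1.47. GLYMA_15G240500 was at -0.74, -1.26 and -0.86 and GLYMA_15G240000 at -0.39, -0.74 and -1.10, with mean WT levels of only 0.33 and 0.53 CPM. The remaining identifiers there were not below 0 at every stage.

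**Figure D2:**
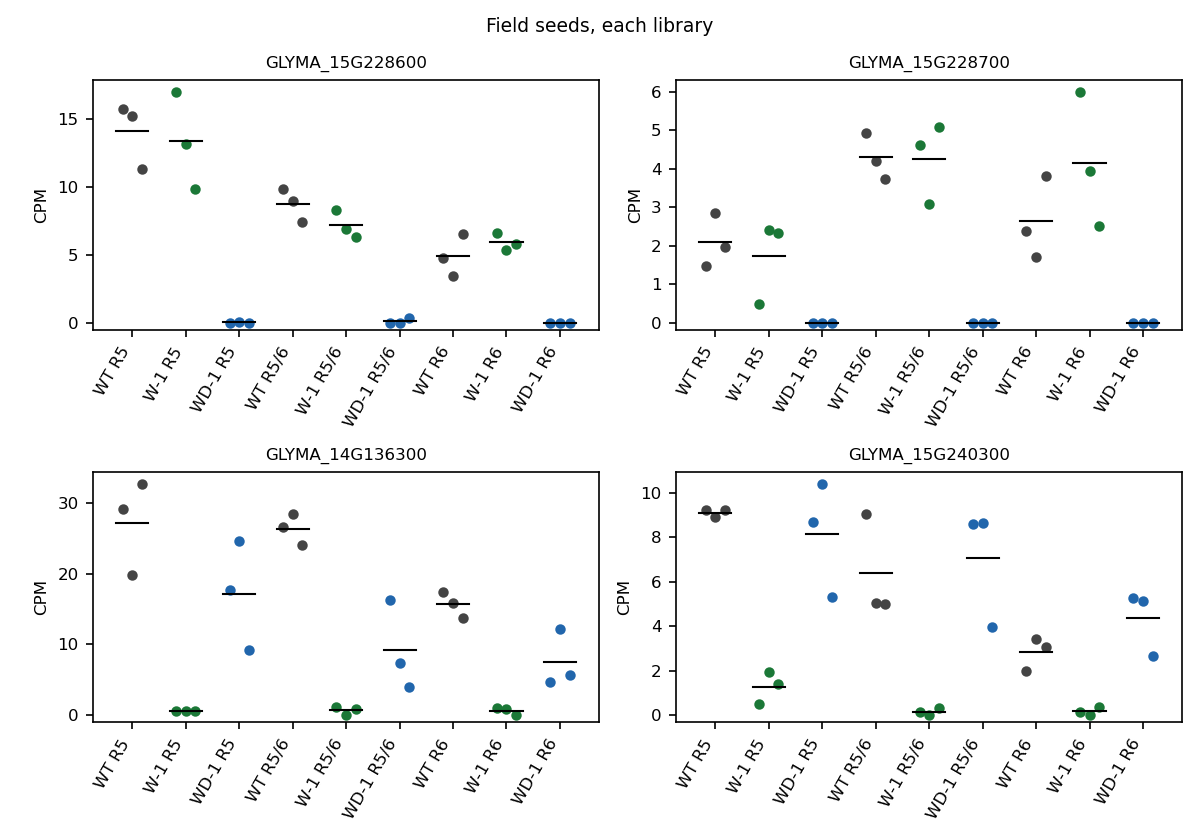
CPM (y axis) in each field library for the lowest pair of genes in WD-1 (top) and in W-1 (bottom), by genotype and stage (x axis). Points are libraries, 3 a group, and bars are their means. The pair on chromosome 15 is at or near 0 only in WD-1. In W-1 GLYMA_14G136300 is near 0 at each stage, and GLYMA_15G240300 is low at R5 and near 0 at R5/6 and R6.

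**Figure D3:**
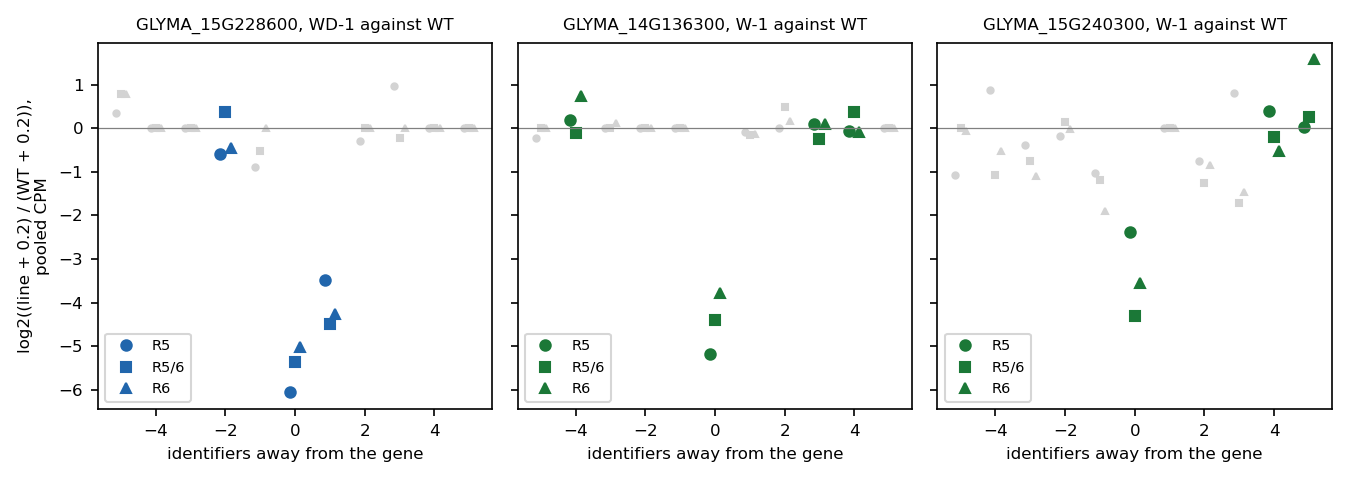
The log2((line + 0.2)/(WT + 0.2)) of summed CPM (y axis, log2 units) for the 5 identifiers on either side of GLYMA_15G228600, GLYMA_14G136300 and GLYMA_15G240300 (x axis, places from the gene). Coloured symbols are eligible genes and grey symbols genes with under 2 CPM in WT at 1 stage or more. Among eligible genes the low values belong to the adjoining pair in the left panel and to the single gene at 0 in the other panels, and in the right panel some of the grey symbols are low in W-1 too.

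At all 3 stages, 4 of the 25 genes of the W-1 list had each W-1 library below each WT library, against 0.0740% of eligible genes. They were GLYMA_14G136300, GLYMA_15G240300, GLYMA_16G119900 and GLYMA_06G000100. In the WD-1 list this held for 2 of 25, GLYMA_15G228600 and GLYMA_15G228700, against 0.0185% of eligible genes. The score was made from the same contrast, so nothing is read from the difference between these shares. GLYMA_16G119900 stood at 15.0, 19.9 and 12 CPM in WT and at 1.95, 1.24 and 1.17 CPM in W-1 at R5, and its largest value was -1.17, at R6. In WD-1 it was also below WT at R5, at 2.28, 0.870 and 2.93 CPM, but it did not enter the WD-1 list because its R6 value was 0.03. GLYMA_06G000100 stood at 14.1, 12.7 and 13.2 CPM in WT, at 3.96, 6.42 and 5.90 CPM in W-1 and at 14.6, 14.1 and 10.2 CPM in WD-1 at R5, and its W-1 values were -1.12, -1.51 and -2.30 at the 3 stages.

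The other members among the 6 lowest of each line, and the 2 genes in both lists, had scores closer to 0. In the W-1 list these were GLYMA_10G159600 with a score of -1.71, GLYMA_03G129100 with -1.68, GLYMA_09G139200 with -1.29 and GLYMA_02G111200 with -1.22. Without replicate 1 of W-1 at R5/6 the scores turned positive for GLYMA_10G159600 (0.23), GLYMA_09G139200 (0.092) and GLYMA_02G111200 (0.77). In the WD-1 list they were GLYMA_14G117700 with -1.28, GLYMA_09G158500 with -1.13, GLYMA_10G152300 with -0.78 and GLYMA_02G111200 with -0.75. GLYMA_02G111200 stood furthest below WT at R6, where WT held 14.9, 27.0 and 127 CPM, W-1 held 5.09, 7.61 and 8.29 CPM and WD-1 held 7.53, 11.3 and 7.65 CPM. At R5/6 WT held 5.55, 6.73 and 12.8 CPM of GLYMA_02G111200, WD-1 held 4.04, 5.93 and 4.34 CPM, and W-1 held 0.546, 21.0 and 9.43 CPM, so that W-1 lay on both sides of WT. GLYMA_15G116900, the other gene in both lists, had scores of -0.97 for W-1 and -0.52 for WD-1. Its R5 level stood at 2.17, 2.49 and 1.61 CPM in WT, at 0.974, 0.982 and 0.959 CPM in W-1 and at 1.41, 1.53 and 0.478 CPM in WD-1, levels of a few CPM that lie close to the floor of the shallow libraries.

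The W-1 list leaned on single libraries. Without replicate 1 of W-1 at R5/6, which held 31.4 M of counts where replicates 2 and 3 held 2.60 and 3.34 M, the rule kept 8 of its 25 genes, and the median score of the 25 was 0.09. Without replicate 3 of WT at R6, at 27.2 M the deep library of a group with 2.51 and 1.17 M, it kept 12. The sum of reads weights a library by its depth, and with the mean of the library CPM in its place the rule kept 7 of 25 in W-1 and 16 of 25 in WD-1. The WD-1 list fell to 12 of 25 without replicate 2 of WT at R5. GLYMA_14G136300, GLYMA_06G000100 and GLYMA_15G228600 stayed members in all 34 alternatives, GLYMA_15G240300 and GLYMA_16G119900 were lost in 1, and GLYMA_15G228700, which WT holds at 2.02 CPM at R5, was lost in 3.

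For 9 of 25 genes of the W-1 list and 0 of 25 of the WD-1 list, replicates 1 and 2 of WT at R6 were both over 5-fold higher than replicate 3. At R5/6 replicates 2 and 3 of W-1 were both over 5-fold higher than replicate 1 for 11 of 25 and 3 of 25, not counting genes with 0 reads in replicate 1. Neither count was made over all eligible genes, so they are not read as a trait of either list. A set of 6 of the 9, picked after their values were seen for a single high library in the greenhouse described below, comprised GLYMA_07G236800 and the adjoining GLYMA_07G236900, GLYMA_08G069100, GLYMA_10G159600, GLYMA_15G119700 and GLYMA_15G199600. GLYMA_15G199600 stood at 4360, 3246 and 129.6 CPM in WT at R6, where the third library is the deep one, and at 9.57, 319.9 and 280.9 CPM in W-1 at R5/6, where the first is. It was at 833.6, 14.3 and 184 CPM in WD-1 at R5/6, where the highest library was a deep one. GLYMA_07G236900 followed with 161, 119 and 12.7 CPM in WT at R6 and 0.350, 35.2 and 19.4 CPM in W-1 at R5/6. Without replicate 1 of W-1 at R5/6 the scores of GLYMA_07G236800 and GLYMA_07G236900 were 0.88 and 1.33. Depth moved with the level within these groups, and its part in the scores was not tested.

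Similarly, the WD-1 scores of GLYMA_14G117700 and GLYMA_09G158500 turned on replicate 2 of WT at R5. GLYMA_14G117700 stood at 1.33, 40.1 and 1.13 CPM in WT at R5 and at 1.1, 8.45 and 8.44 CPM in WD-1. At R6 it stood at 1591, 2587 and 2052 CPM in WT and at 598, 674 and 319 CPM in WD-1, without overlap. GLYMA_09G158500 stood at 0.847, 44.8 and 1.09 CPM in WT at R5 and at 5491, 8160 and 6799 CPM at R6. WT levels of both genes were far higher at R6 than at R5, and without that library their scores were 1.85 and 1.29. The identifier next to GLYMA_09G158500, GLYMA_09G158600, is in the W-1 list.

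The stage courses of the members in WT are given as a description only. In WT the summed level at R6 was over 2-fold that at R5 for 11 of 25 genes of the W-1 list (44%) and 10 of 25 of the WD-1 list (40%), against 2.32% of eligible genes. The opposite course held for 28% and 20%, against 43.0% of eligible genes. These WT levels entered the score, so nothing is read from the difference between these shares. The share of estimated counts that were not whole, which can arise where reads are divided between gene copies, had a median of 50% in the W-1 list and 44.4% in the WD-1 list against 69.8% over eligible genes. It was 0% for GLYMA_15G228700, 3.28% for GLYMA_15G240300, 44.4% for GLYMA_15G228600 and 75.4% for GLYMA_14G136300, so values of the last pair may include reads of a near-identical copy.

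W-1 and WD-1 were compared with the same WT libraries, and the values of one line's list in the other line are given side by side without a test. At the 3 stages in turn, the WD-1 list had median values of -0.65, -0.85 and -1.70 for WD-1 and of -0.32, -0.69 and -0.87 for W-1. Medians of the W-1 list were -1.29, -1.54 and -1.25 for W-1 and -0.44, 0.44 and 0.33 for WD-1. Over eligible genes the medians lay between -0.10 and 0.04 for W-1 and between -0.02 and 0.37 for WD-1.

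The greenhouse libraries were not used by the rule, and those of 27 DAP were tested by label. In this contrast genotype cannot be told apart from the second code of the names or from the position on the first principal component given below. The counts that follow are therefore differences between labelled groups and not an effect of genotype alone. Libraries labelled WD-1 and WD-2 were each compared with the same 3 labelled WT by the quasi-likelihood F-test of edgeR, p-values were adjusted over 34548 genes by the Benjamini-Hochberg method, and all members were among the genes tested. In the libraries labelled WD-1, 23 of 25 genes of the WD-1 list were lower at an adjusted p of 0.05 and 0 were higher, against 20.2% of all genes lower, and the median log2 fold change was -1.80 against -0.02 over all genes. All 25 fold changes lay below 0, so no gene was higher at an unadjusted p of 0.05 or by DESeq2 either. In the libraries labelled WD-2, 21 of 25 were lower and 0 higher, against 10.8% lower, with a median of -1.34 against -0.03, and again all 25 fold changes lay below 0. With GLYMA_15G228700 set at its bound the medians did not move. Of the W-1 list, 14 genes were lower and 4 higher in the libraries labelled WD-1 (20.1% of all genes higher), with a median of -0.79. In those labelled WD-2, 10 of 25 were lower and 2 higher (13.4% of all genes higher), with a median of -0.53.

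The counts depended on the scaling. The TMM factors, by which edgeR adjusts library totals, were 1.73 to 2.03 for the libraries labelled WD-1 at 27 DAP, 1.19 to 1.23 for those labelled WD-2 and 1.12 to 1.28 for the labelled WT. The fitted fold changes under the label WD-1 therefore lie below those of the CPM printed beside them, which are per total counts. With total counts in place of TMM, an alternative chosen after seeing the data, the median over all genes moved to 0.59 under the label WD-1 and was -0.02 under WD-2. The WD-1 list then had 14 genes lower and 0 higher by edgeR under the label WD-1 (2.83% of all genes lower), with a median of -1.18, and 10 lower and 0 higher under WD-2 (2.38% lower), with a median of -1.32, and 24 and 25 of the 25 fold changes lay below 0. The W-1 list had 10 lower and 4 higher (25.5% of all genes higher) and 8 lower and 1 higher (4.89% higher).

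On the first principal component of the greenhouse libraries, the labelled WT libraries at 27 DAP were at 99.7 to 113.7. Those labelled WD-1 at 27 DAP were at -22.0 to -15.2 and those labelled WD-2 at 9.23 to 12.6. Of the libraries labelled 24 DAP, WT were at 15.8 to 29.3, WD-1 at 61.7 to 89.2 and WD-2 at 98.2 to 116.0. The labelled WT of 27 DAP thus lay within the range of those labelled WD-2 at 24 DAP. Genotype, the position on this component and the second code of the names cannot be told apart in this contrast. In an alternative chosen after seeing the data, the labelled WT libraries of 24 DAP took the place of those of 27 DAP. The WD-1 list then had 20 genes lower and 0 higher in the libraries labelled WD-1 (4.42% of all genes lower) and 13 lower and 1 higher under the label WD-2 (15.4% lower). The W-1 list had 3 lower and 0 higher by edgeR under the label WD-1 (5.72% of all genes higher), with 4 lower and 1 higher at an unadjusted p of 0.05. Under the label WD-2 it had 2 lower and 2 higher (8% each), where 15.4% of all genes were lower and 17.7% higher. The counts of the W-1 list also fell without replicate 2 of the labelled WT at 27 DAP, to 7 lower for the label WD-1 (18.3% of all genes lower) and 4 for WD-2 (8.70% lower).

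**Figure D4:**
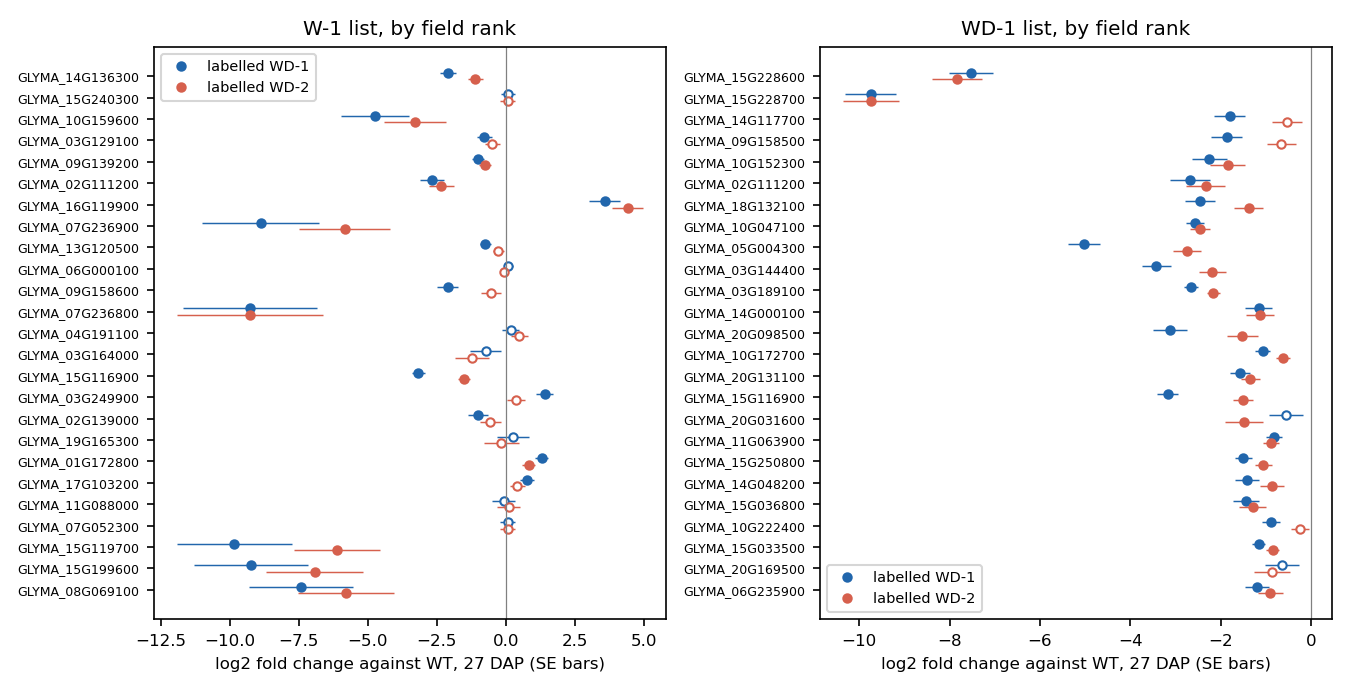
Log2 fold change at 27 DAP (x axis, bars are standard errors) of libraries labelled WD-1 (blue) and WD-2 (red) against labelled WT for each gene of the W-1 list (left) and the WD-1 list (right), ordered by field score, 3 libraries a group. Filled points passed an adjusted p of 0.05. Genes of the WD-1 list lie below 0 for both labels, genes of the W-1 list lie on either side, and the fitted values of GLYMA_15G228700, GLYMA_07G236800 and, for WD-1, GLYMA_08G069100 have no reads in the line and are not bounds.

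The adjoining pair on chromosome 15 was again near 0. GLYMA_15G228600 stood at 5.47, 5.73 and 5.61 CPM in labelled WT libraries of 27 DAP, at 0, 0.0564 and 0.0497 CPM under the label WD-1 and at 0, 0.0424 and 0 CPM under WD-2. The groups did not overlap, and on the log2 scale edgeR put WD-1 at -7.52 (SE 0.49, adjusted p = 6.19e-14) and WD-2 at -7.84 (SE 0.55, adjusted p = 3.71e-13) against labelled WT. GLYMA_15G228700 stood at 7.26, 6.38 and 6.78 CPM in the libraries labelled WT and at 0 reads in all 6 others, which puts those labelled WD-1 at least 130-fold lower and those labelled WD-2 at least 135-fold lower (edgeR adjusted p = 1.59e-10 and 7.20e-10). Both genes passed the threshold in all 13 alternatives for each label.

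By library, the pair divided the 36 greenhouse samples into 12 with reads and 24 with few or none, and the division ran across the labels. GLYMA_15G228600 had 40 to 154 reads in each of the 12 libraries labelled 24 DAP or WT at 27 DAP, and 0 to 4 reads in each of the other 24. GLYMA_15G228700 had 27 to 157 reads in the same 12 libraries and 0 reads in the other 24, over 407.7 M counts. The 12 held at most 0.408 CPM of AtWRI1, and the 24 held 39.0 to 323.6 CPM except for 1 library, replicate 2 labelled WD-1 at 30 DAP, which had 0 reads of either transgene and 1 and 0 reads of the pair. The 24 include the 6 libraries labelled WT at 30 and 33 DAP, and the 12 include the 6 labelled WD-1 and WD-2 at 24 DAP. The libraries labelled 27 DAP held both states, and at each other labelled time all 9 libraries were in the same state of the pair. The 12 are also the set coded Wt in the names.

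**Figure D5:**
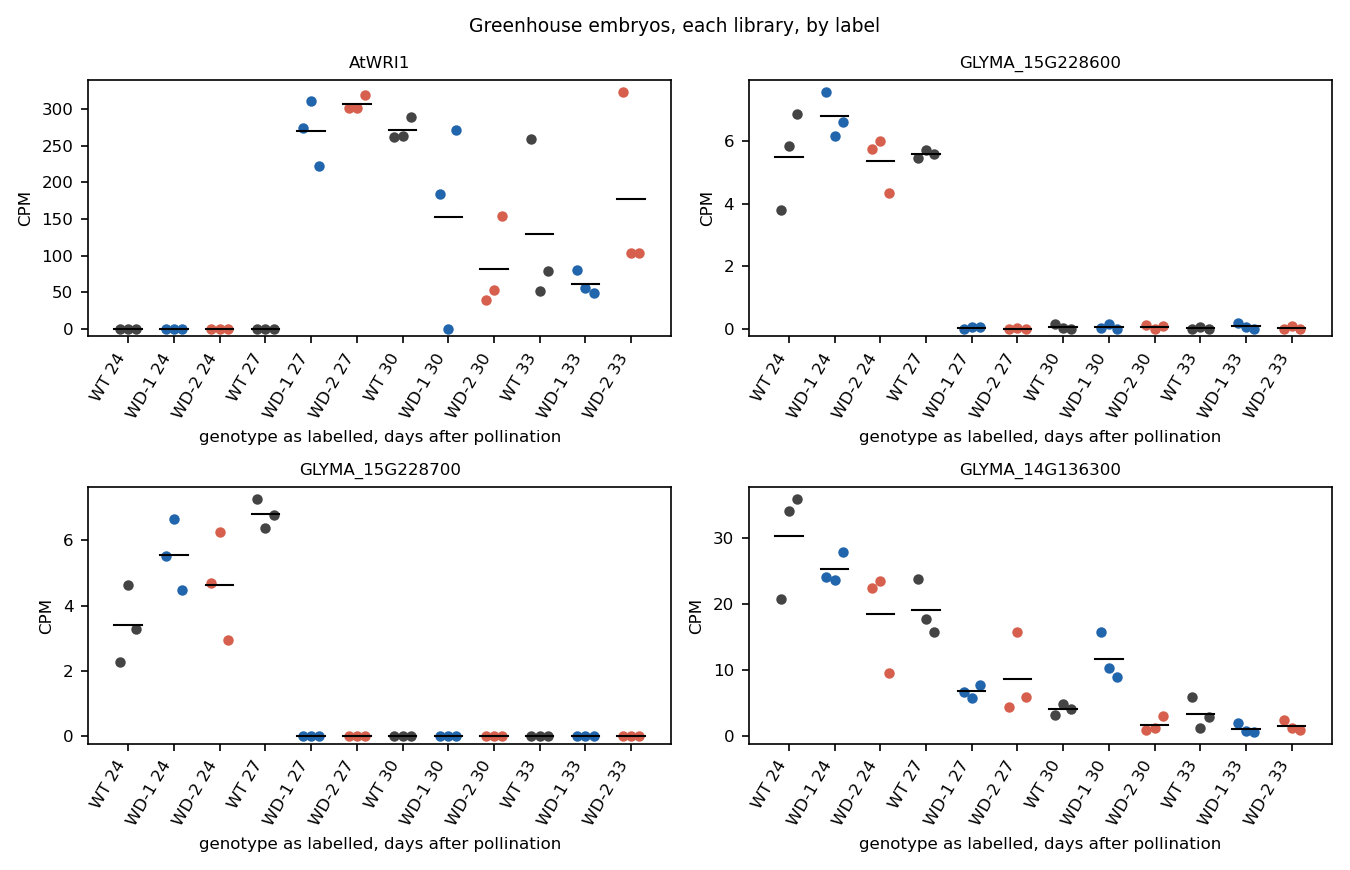
CPM (y axis) of AtWRI1, GLYMA_15G228600, GLYMA_15G228700 and GLYMA_14G136300 in each greenhouse library, by labelled genotype and days after pollination (x axis). Points are libraries, 3 a group, and bars are their means. The pair on chromosome 15 is present in the 12 libraries in which AtWRI1 is near 0 at 24 DAP or in labelled WT at 27 DAP, and at or near 0 in the other 24.

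The 2 genes nearly absent in field W-1 behaved otherwise in the greenhouse, where no W-1 plants were sampled. GLYMA_14G136300 stood at 23.8, 17.8 and 15.7 CPM in labelled WT libraries of 27 DAP, at 6.72, 5.83 and 7.74 CPM under the label WD-1 and at 4.47, 15.8 and 5.86 CPM under WD-2. By edgeR its log2 fold change was -2.10 (SE 0.28, adjusted p = 2.48e-07) for WD-1 and -1.11 (SE 0.27, adjusted p = 0.00204) for WD-2, past the threshold in all 13 alternatives for WD-1 and in 12 of 13 for WD-2, where the call was lost with total counts in place of TMM (adjusted p = 0.125). One library under WD-2 overlapped WT. GLYMA_14G136300 ranged from 9.55 to 35.8 CPM over the 9 libraries labelled 24 DAP and from 0.697 to 5.97 CPM over the 9 labelled 33 DAP, without overlap. The former are all in the set coded Wt and the latter all in the set coded R. Time, transgene level and code therefore cannot be told apart in this difference. GLYMA_15G240300 stood at 3.68, 3.47 and 1.38 CPM in labelled WT, at 4.28, 3.84 and 5.27 CPM under the label WD-1 and at 3.50, 2.71 and 2.55 CPM under WD-2. For GLYMA_15G240300 each CPM under the label WD-1 was above each of labelled WT, with 163% of the WT level over the summed reads, and the groups overlapped for WD-2. With TMM the log2 fold changes of 0.07 (SE 0.26, edgeR adjusted p = 0.859) and 0.06 (SE 0.27, adjusted p = 0.901) did not pass the threshold, and with total counts that of WD-1 was 0.66 (adjusted p = 0.226).

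GLYMA_16G119900 rose, opposite to its field values. It stood at 0.473, 0.552 and 0.605 CPM in labelled WT libraries of 27 DAP, at 8.86, 10.8 and 10.6 CPM under the label WD-1 and at 9.61, 7.46 and 18.6 CPM under WD-2, with log2 fold changes of 3.58 (SE 0.56, edgeR adjusted p = 3.77e-06) and 4.40 (SE 0.55, adjusted p = 1.21e-07). Against the labelled WT of 24 DAP, at 1.16, 8.61 and 2.29 CPM, the rise of GLYMA_16G119900 was 1.06 (adjusted p = 0.118) and 1.88 (adjusted p = 0.000862). GLYMA_01G172800 rose by 1.30 (adjusted p = 3.62e-05) and 0.83 (adjusted p = 0.00800) on the log2 scale for the labels WD-1 and WD-2, and the second call was lost with total counts (adjusted p = 0.259). GLYMA_03G249900 and GLYMA_17G103200 rose by 1.41 (adjusted p = 0.000319) and 0.77 (adjusted p = 0.0155) in those labelled WD-1. The call of GLYMA_17G103200 was lost in 5 of 13 alternatives. Against the labelled WT of 24 DAP none of these 3 rises passed the threshold, and GLYMA_03G249900 was lower under the label WD-2, at -0.92 (adjusted p = 0.0159).

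After the pair on chromosome 15, the largest falls of the WD-1 list at 27 DAP were those of GLYMA_05G004300, GLYMA_03G144400 and GLYMA_15G116900 under the label WD-1 and of GLYMA_05G004300, GLYMA_10G047100 and GLYMA_02G111200 under WD-2. GLYMA_05G004300 fell under both labels, with log2 fold changes of -5.02 (SE 0.35, edgeR adjusted p = 3.38e-13) for WD-1 and -2.74 (SE 0.32, adjusted p = 2.43e-08) for WD-2. GLYMA_03G144400 had -3.42 (SE 0.31) and -2.18 (SE 0.30), and GLYMA_15G116900, a gene of both lists, had -3.17 (SE 0.23) and -1.51 (SE 0.22). Each of these falls passed the threshold, but against the labelled WT of 24 DAP GLYMA_05G004300 was at -1.47 and, as a rise past the threshold, 0.82, GLYMA_03G144400 at -0.82 and 0.41, and GLYMA_15G116900 at -1.71 and -0.05 (adjusted p = 0.892). Of these, the values of GLYMA_03G144400 and that of GLYMA_15G116900 under WD-2 did not pass the threshold. GLYMA_10G047100 had -2.57 (SE 0.21) and -2.45 (SE 0.22), and against the labelled WT of 24 DAP it was at -2.94 and -2.83, past the threshold for each. GLYMA_02G111200, in both lists, stood at 448, 301 and 222 CPM in labelled WT, at 91.6, 73.8 and 60.6 CPM under the label WD-1 and at 47.3, 75.1 and 69.0 CPM under WD-2, log2 fold changes of -2.68 and -2.33. Against the labelled WT of 24 DAP, GLYMA_02G111200 was at -0.03 and 0.32 and did not pass.

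GLYMA_14G117700 and GLYMA_09G158500, next in the WD-1 list after the pair on chromosome 15, were at -1.80 (SE 0.34, edgeR adjusted p = 6.18e-05) and -1.87 (SE 0.34, adjusted p = 3.18e-05) under the label WD-1, and did not pass under WD-2, at -0.52 and -0.66. Against the labelled WT of 24 DAP they were at -1.22 and -1.10 under the label WD-1, past the threshold, and at 0.06 and 0.11 under WD-2. GLYMA_14G117700 stood at 1229, 1423 and 2645 CPM in labelled WT, at 877, 895 and 558 CPM under the label WD-1 and at 1349.7, 1185 and 1238 CPM under WD-2, so WD-2 overlapped WT. GLYMA_10G152300 had log2 fold changes of -2.25 and -1.84, and GLYMA_06G235900, the last gene of the WD-1 list, had -1.20 and -0.90, each past the threshold. The calls of GLYMA_06G235900 were lost in 1 of 13 alternatives for WD-1 and in 3 of 13 for WD-2, among them total counts in place of TMM for both labels (adjusted p = 0.348 and 0.331). In the W-1 list GLYMA_09G139200 was lower under both labels, at -1.02 and -0.75, and against the labelled WT of 24 DAP it was at 0.27 and 0.54. With total counts in place of TMM GLYMA_09G139200 was at -0.42 and -0.74 and did not pass for either label. GLYMA_03G129100 was at -0.79 (adjusted p = 0.0185) and -0.50 (adjusted p = 0.201), and the first call was lost in 4 of 13 alternatives. With total counts in place of TMM the first value of GLYMA_03G129100 was -0.18 (adjusted p = 0.743), and its summed level per total counts was 90.9% of labelled WT. GLYMA_06G000100, low in field W-1 at each stage, was at 0.09 and -0.08 and did not pass for either label.

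The falls of 6 genes of the W-1 list with the largest fitted changes at 27 DAP rested on 1 library. GLYMA_15G199600 stood at 0.736, 138 and 0.173 CPM in labelled WT, at 0.0509, 0 and 0.249 CPM under the label WD-1 and at 0.0565, 0.339 and 0.705 CPM under WD-2. Replicate 2 of the labelled WT held over 80% of the summed CPM for 6 of 25 genes of the W-1 list, the 6 named above, and for 0 of 25 of the WD-1 list. The same was not counted over all genes tested, so these counts are not read as a trait of either list. GLYMA_07G236900 stood at 0.316, 27.7 and 0.0432 CPM in the libraries labelled WT. Without that library none of the 6 passed the threshold in either contrast.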

How the data were processed

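The values that the authors deposited are estimated counts (expected counts) of reads per gene, not normalized, in 63 libraries, per the file headers. The submitters' processing notes name kallisto 0.43.1 and sleuth 0.30.0, with R 3.6.3 and FastQC 0.11.5. A genome build was not given in the sources used here. CPM and scores used the values as deposited, and counts were rounded to whole numbers before testing with edgeR 4.0.16 in R 4.3.3 (filterByExpr, TMM, quasi-likelihood F-test, 12 labelled greenhouse groups in one model, Benjamini-Hochberg adjustment over 34548 genes, threshold 0.05). The size of a fold change and its F value gave its standard error. On simulated counts of the 27 DAP comparison (34548 genes) the test found 82% of genes changed 2-fold and 100% of those changed 4-fold, and made 7 false calls. The simulation gave every gene the same spread between libraries (a coefficient of variation of 0.168). It held no single high libraries and no shift in scaling between the compared groups. Its figures therefore do not cover calls that rest on 1 library or on the TMM factors. The members and lists were chosen with earlier results of these data known. Named genes are the 6 lowest per line, genes of both lists, adjoining members, the last member inside each list, and at 27 DAP up to 5 largest falls and every rise per line and list. The reference table matched 0 identifiers, so no sequence or gene name is given. A count of 0 allows up to 3 counts, or 0.0828 to 2.56 CPM in a field library and 0.127 to 0.995 CPM in a greenhouse library; intervals and floors cover counting error only. Other steps used Python 3.11.15 with pandas 2.3.3, numpy 2.4.6, scipy 1.17.1 and matplotlib 3.10.9. Alternatives were DESeq2 1.42.0, other scaling (also total counts, added after seeing the data) and filters, other forms of the field rule, other control libraries and leaving out each library.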

Additional observations from a re-analysis of the deposited data

Results flagged for a closer look

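For 7 of the 25 named members, the responses of the libraries labelled WD-2 and WD-1 at 27 DAP differed from each other past an edgeR adjusted p of 0.05, 6 of them with the higher level in WD-2, where 17.0% of all genes were higher and 13.9% lower. The share of 28% lies near the 30.8% of all genes that differed in either direction, so it is no result about the members, and 3 of the 7 were named for their change at 27 DAP. By the codes in the names of the tables both groups belong to the same set under different second codes, and what separates them beyond the labels was not tested. GLYMA_05G004300 was higher in the libraries labelled WD-2 by 2.28 on the log2 scale (SE 0.32). GLYMA_15G116900 was higher there by 1.66 (SE 0.23). GLYMA_14G117700 was higher by 1.28 (SE 0.33), GLYMA_03G144400 by 1.24 (SE 0.29) and GLYMA_09G158500 by 1.21 (SE 0.33). GLYMA_14G136300 was higher by 0.98 (SE 0.28). GLYMA_03G249900 differed the other way, with a log2 difference of -1.03 (SE 0.29).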

How the results depend on the processing

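The counts of genes lower at 27 DAP were 23 and 21 for the WD-1 list and 14 and 10 for the W-1 list (libraries labelled WD-1 and WD-2). They moved by over 1.5 times with the labelled WT of 24 DAP as control, an alternative chosen after seeing the data, to 13 for the WD-1 list in WD-2 and to 3 and 2 for the W-1 list, where 4.42% and 15.4% of all genes were lower. With total counts in place of TMM, also chosen after seeing the data, they moved to 14 and 10 for the WD-1 list and were 10 and 8 for the W-1 list (2.83% and 2.38% of all genes). With DESeq2 the W-1 list had 6 in WD-2 (11.7% of all genes). Leaving out each 27 DAP library in turn gave 23 to 24 and 19 to 21 for the WD-1 list and 7 to 13 and 4 to 10 for the W-1 list, lowest for the W-1 list without replicate 2 of the labelled WT, while 14.5% to 18.3% and 7.56% to 9.02% of all genes were lower. A group left with 2 libraries drew its spread from all groups. Libraries of the same replicate number did not deviate together (r from -0.16 to 0.05 over 9 pairs of libraries), and a replicate block gave 23 and 21 for the WD-1 list and 10 and 7 for the W-1 list, the same as the 27 DAP libraries without it, against 19.5% and 12.4% of all genes with the block and 21.0% and 14.0% without.

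With the labelled WT of 24 DAP the direction turned for GLYMA_09G139200 (0.27 in WD-1, 0.54 in WD-2) and, in WD-2, for GLYMA_01G172800 (-0.36), GLYMA_09G158500 (0.11), GLYMA_14G117700 (0.06), GLYMA_17G103200 (-0.12), GLYMA_02G111200 (0.32), GLYMA_03G144400 (0.41), GLYMA_03G249900 (-0.92), GLYMA_05G004300 (0.82), GLYMA_08G069100 (1.63) and GLYMA_10G159600 (0.69). Leaving out each field library in turn, W-1 scores ran from -1.54 to 0.77 for GLYMA_02G111200, from -1.34 to 0.88 for GLYMA_07G236800, from -1.18 to 1.33 for GLYMA_07G236900, from -1.61 to 0.73 for GLYMA_08G069100, from -1.34 to 0.092 for GLYMA_09G139200 and from -1.85 to 0.23 for GLYMA_10G159600, positive without replicate 1 of W-1 at R5/6. WD-1 scores ran from -1.90 to 1.29 for GLYMA_09G158500 and from -1.69 to 1.85 for GLYMA_14G117700, positive without replicate 2 of WT at R5. The causes were not tested. With a mean of TMM-normalized CPM in the rule, 8 of 25 W-1 and 10 of 25 WD-1 members were kept, and with libraries over 10 M counts alone 13 and 23.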
